A study of Mus musculus with 2 samples.

Results

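A set of 10 homeobox genes that pattern the neural crest of the pharyngeal arches was followed across the internal and external carotid arteries of mouse embryos. They were Dlx1, Dlx2, Dlx3, Dlx5, Dlx6, Msx1, Msx2, Barx1, Gsc and Pitx1, taken as a named list, and every probe set annotated to 1 of these genes alone was used. They made up 10 of 18193 named genes and 14 of 34945 probe sets with 1 gene. Vessel segments of untreated ICR mice at E13.5, mid-gestation, were microdissected from 22 embryos, per the design text, and combined before RNA was extracted. The labels do not say whether the same embryos gave both vessels. RNA of the internal carotid arteries (ICA pool) was hybridised to 1 Affymetrix mouse array and RNA of the external carotid arteries (ECA pool) to another. Both RNAs had been amplified in a double round from oligo-dT primers. Neither pool had a replicate of any kind, so each value is a single measurement and no p-value can be given. Differences between pools cannot be told apart from differences between dissections or amplifications.

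Arch mesenchyme, which also contributes to the walls of the great arteries, comes largely from cranial neural crest. Endothelin-1, made by arch epithelium, core mesoderm and endothelium, acts through its A receptor on crest cells and is needed there for Dlx3, Dlx5, Dlx6 and Hand2. The Dlx genes are expressed in a nested order, with Dlx1 and Dlx2 in upper and lower arch, Dlx5 and Dlx6 in the lower part and Dlx3 most distally. Msx1 and Msx2 respond to BMP signals, Barx1 and Pitx1 mark parts of the jaw mesenchyme, and Gsc acts in jaw and middle ear structures. The series is about endothelin and the growth of sympathetic axons, which follow these vessels, so the comparison asks how these factors are distributed between the 2 branches.

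Deposited signals are linear and in arbitrary units, and the median of all non-control probe sets on an array served as the floor for a measured signal. It was 47.5 for the ICA and 52.3 for the ECA array. A ratio was taken where both signals reached the floor, and a lower bound against the floor where 1 side did not. Where neither side did, or where a bound would have pointed against the measured side, no fold was given. Ratios are external over internal carotid on the log2 scale, and a gene was called at 2-fold. For a gene with several probe sets the brightest stood for it. With no replicates, the only spread available was that between probe sets of 1 gene on the same arrays, a standard deviation of 0.34 in log2 ratio over 4315 genes, which does not cover embryos or dissections.

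Across the 10 genes, 2 were at least 2-fold higher in the ICA pool, Barx1 and Pitx1, and 0 were so in the ECA pool. Over all 12419 genes that had a ratio or bound, the same fold was passed by 1.51% toward the ICA pool and 2.15% toward the ECA pool. Of the 10, 9 had a ratio or bound, 8 of them with both signals at or above the floors, and 61.9% of all named genes reached the floors on both arrays. The members stood on both sides of 0, with 5 of 9 above it and 4 below, and 56.2% of all measured genes were above. Their median log2 ratio was 0.19, and that of all measured genes was 0.06. Most members were dim, and genes as dim as these also lay above 0. Genes with mean signals within 0.5 of a member's on the log2 scale, above the floors on both arrays, were taken for each. Their medians were 0.13 to 0.17 for Dlx2, Dlx3, Dlx5, Dlx6, Msx2, Gsc and Pitx1, and -0.0033 and -0.0065 for Msx1 and Barx1. The other 7 measured members ran from -0.76 to 0.48, with Dlx2 taken at its bound.

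**Figure D1:**
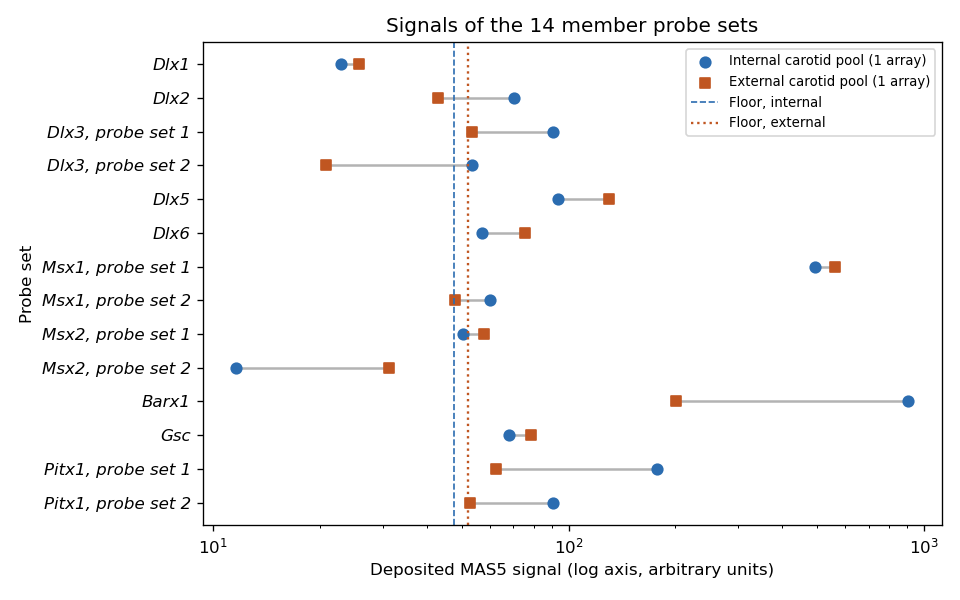
Deposited signal (log axis, arbitrary units) of each of the 14 probe sets in the ICA pool (circles) and the ECA pool (squares), 1 array each, with no error bars because there are no replicates; vertical lines mark the floors, 47.5 and 52.3. Barx1 and Pitx1 lie to the right in the ICA pool, and most other probe sets apart from the brighter one of Msx1 stand close to or under the floors.

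Barx1 had the largest difference of the 10. This factor acts in the mesenchyme of the molar region and the jaw, and outside the arches in that of the stomach. Its signal was 905.2 in the ICA and 200.8 in the ECA pool, both well clear of the floors. The ICA pool was 4.51-fold higher, a log2 ratio of -2.17. Only 29 of the 12419 measured genes, or 0.234%, had a lower ratio. Among 1704 genes of like brightness, those with a mean signal within 0.5 on the log2 scale and both signals at or above the floors, the central 95% of ratios ran from -0.76 to 0.82. A distance from 0 as great as that of Barx1 was had by 0.939% of these. Since only genes at the floors or above enter, such ranges are narrowed for dim genes. Barx1 was read by 1 probe set, so no further probe set bears on this value.

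Pitx1, a factor of the lower jaw, the pituitary and the hindlimb, stood next. Its brighter probe set read 177.1 in the ICA and 62.5 in the ECA pool. That was 2.83-fold higher in the ICA pool (log2 ratio -1.50), and 83 measured genes had a lower ratio. The central 95% of 3004 genes of like brightness ran from -0.82 to 1.02. The other Pitx1 probe set pointed the same way but by less, at 90.7 and 52.7, a log2 ratio of -0.78. Both external carotid signals of Pitx1 stood close to the floor, and a floor raised to the 75th percentile left only a bound of -0.21.

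Barx1 and Pitx1 moved in the same direction as skeletal muscle markers. Of the 10 muscle markers, 9 were at least 2-fold higher in the ICA pool. Their summed signal was 21284 there and 4739 in the ECA pool, with none listed at 0. The 4 with the largest ratios were Ryr1, Myh3, Neb and Des, at log2 ratios of -2.87, -2.77, -2.69 and -2.44, though a further Des probe set gave a bound of 0.34. Myod1, the myogenic factor, read 616.1 and 139.3. Pitx3, a relative of Pitx1 that embryonic muscle also makes, read 463.7 and 65.9, 7.04-fold higher in the ICA pool. Macrophage markers were also higher there, with a summed signal of 13482 against 8767 and 5 of 5 log2 ratios below 0, of which Tyrobp, at -1.01, just passed 2-fold. The part of these tissues in the Barx1 and Pitx1 values was not tested. In such pools, fewer cells of a type and less RNA per cell cannot be told apart.

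Promoter sequence from RefSeq (GRCm38.p6) was matched for 6 of the 10 genes. The 250 bases before the start site are shown for Barx1, the gene with the largest difference, and for Msx1 and Msx2, a related pair that was near equal in the pools. The windows are chr13:48662786-48663035 on the plus strand for Barx1, chr5:37824586-37824835 on the minus strand for Msx1 and chr13:53472781-53473030 on the minus strand for Msx2. Each is written 5′ to 3′ on the gene's strand, and capitals mark matches to the motifs named after the sequences.
Barx1: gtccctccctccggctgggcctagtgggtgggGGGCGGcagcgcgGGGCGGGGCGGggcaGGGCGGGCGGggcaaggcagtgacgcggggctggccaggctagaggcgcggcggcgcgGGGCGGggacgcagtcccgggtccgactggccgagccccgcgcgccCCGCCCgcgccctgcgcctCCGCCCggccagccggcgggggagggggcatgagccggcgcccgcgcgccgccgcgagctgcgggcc
Msx1: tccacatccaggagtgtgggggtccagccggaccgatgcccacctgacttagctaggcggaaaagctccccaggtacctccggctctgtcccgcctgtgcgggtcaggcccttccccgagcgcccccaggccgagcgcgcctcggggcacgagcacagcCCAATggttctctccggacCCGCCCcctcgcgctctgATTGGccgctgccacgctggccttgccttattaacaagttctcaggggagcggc
Msx2: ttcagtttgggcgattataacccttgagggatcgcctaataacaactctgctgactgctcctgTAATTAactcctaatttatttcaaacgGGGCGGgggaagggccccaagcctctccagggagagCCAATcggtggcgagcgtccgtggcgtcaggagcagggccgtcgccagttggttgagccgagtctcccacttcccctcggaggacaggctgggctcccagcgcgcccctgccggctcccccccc
The motifs, searched on both strands, were the homeodomain core TAATTA, the core bound by Pitx and Gsc proteins TAATCC, the CCAAT box CCAAT, the TATA box TATAAA and the GC box GGGCGG. Overlapping matches were each counted.

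The Barx1 window was the richest in G and C of the 6, at 85.6%, and the median over all 32851 windows was 52.4%. It held 8 GC boxes, a motif that 32.7% of all windows held at least once. The windows of Msx1 and Msx2 were 68.0% and 61.6% G and C and held 1 GC box each. CCAAT boxes were in the windows of Dlx2, Msx1 and Msx2, and 33.8% of all windows held one. The TAATTA core was in 1 of the 6 windows, that of Msx2, and in 4.84% of all windows. The TATA box was in the Gsc window alone of the 6, and in 12.4% of all. The TAATCC core was in 0 of the 6 and in 6.25% of all. These are letter matches and not measured binding sites.

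Dlx genes were dim on both arrays and differed in sign. Dlx5 and Dlx6, neighbours with no protein-coding gene between them, are the lower-arch genes that depend strongly on endothelin. Dlx5 read 93.4 in the ICA and 130.0 in the ECA pool, a log2 ratio of 0.48. Dlx6 read 57.1 and 75.4, a log2 ratio of 0.40. Both were thus somewhat higher in the ECA pool, by 1.39-fold and 1.32-fold. Under the deposited scaling these distances exceed the probe-set spread of 0.34 by little, while Dlx6 was at 0.26 to 0.27 with each other scaling, under that spread, and Dlx5 at 0.34 after centring. As far from 0 as Dlx5 and Dlx6 were 26.8% and 33.0% of genes of like brightness. Dlx6os1, the Evf2 RNA that overlaps Dlx6, read 29.8 in the ICA pool, under the floor, and 84.3 in the ECA pool, so it was at least 1.77-fold higher in the latter.

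Dlx3 and Dlx2 had the opposite sign. The brighter Dlx3 probe set, for the most distal arch member, read 90.4 in the ICA and 53.4 in the ECA pool, a log2 ratio of -0.76 with the external signal barely above the floor. The other Dlx3 probe set read 53.6 and 20.8, which gave a bound of only 1.02-fold in the same direction. Among 2275 genes of like brightness, 6.95% were as far from 0 as Dlx3. The central 95% of their ratios ran from -0.67 to 0.92, and Dlx3 at -0.76 lay a little below this range. As stated for Barx1, such ranges are narrowed for dim genes. With the median over probe sets Dlx3 was at -0.40. Dlx2, expressed in both upper and lower arch, read 70.2 and 42.8, at least 1.34-fold higher in the ICA pool. Dlx1, its neighbour on chromosome 2, read 22.9 and 25.7, under both floors, and has no fold. Dlx1as, the RNA antisense to Dlx1, read 244.3 and 321.6, a log2 ratio of 0.40. None of these ratios reached 2-fold, and Dlx2 and the dimmer Dlx3 probe set, given as bounds, may differ by more than stated.

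Dlx genes also serve outside the arches, in inhibitory neurons of the forebrain and in the skeleton. Of the inhibitory neuron markers, Gad1, Gad2 and Slc32a1 were under both floors. Of 3 measured bone markers 0 passed 2-fold, and the osteoblast factor Sp7, which acts with Dlx5 in bone, read 119.6 and 184.3. Cartilage markers had 4 of 5 measured genes above 0 and 1, Sox5 at 1.23, past 2-fold, higher in the ECA pool. Sox9 and Matn1 of that list had no fold. The summed cartilage signal was 1107 in the ICA and 1518 in the ECA pool. Of 6 measured epithelial markers 3 were above 0 and 3 below, with Epcam at 1.96 past 2-fold by its brighter probe set, of the _x_at class, and its other one under both floors. The summed epithelial signal was 977.2 in the ICA and 1394 in the ECA pool. That 1 Epcam probe set gave 169.5 and 660.9 of these sums, more than the whole difference between them. The part of these tissues in the Dlx values was not tested.

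**Figure D2:**
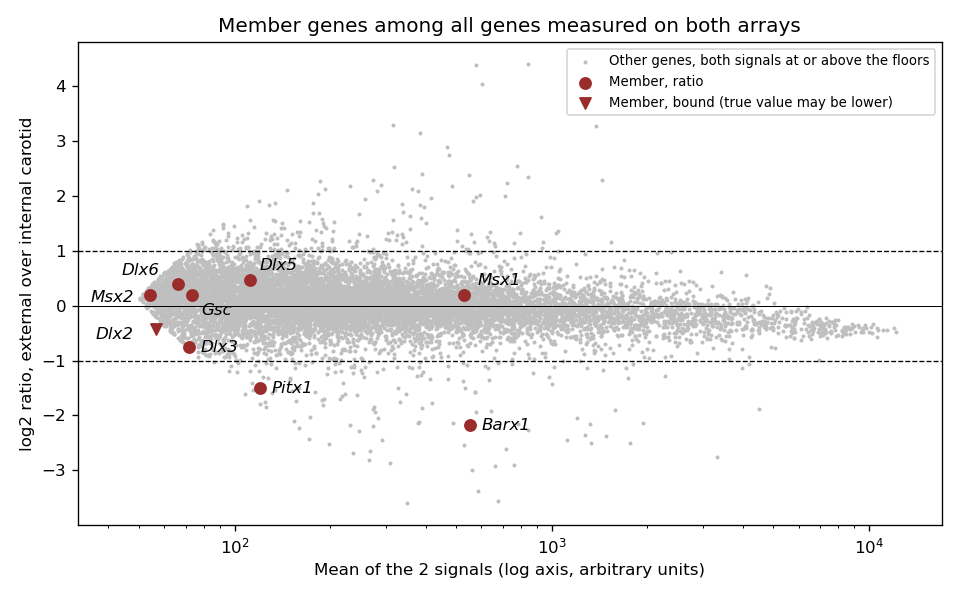
Log2 ratio of external over internal carotid signal against the mean of both signals (log axis), with grey points for all genes at or above the floors on both arrays and red symbols for the 9 measured members; dashed lines mark 2-fold. Barx1 at -2.17 and Pitx1 at -1.50 lie below the lower line, and the other 7 fall between the lines, with Dlx2 at its bound.

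Msx1 and Msx2, repressors that keep mesenchyme undifferentiated downstream of BMP, were near equal in the pools. The brighter Msx1 probe set read 492.6 in the ICA and 562.9 in the ECA pool, a log2 ratio of 0.19. The dimmer one read 60.1 and 47.8, a bound of 1.15-fold in the other direction. The 2 thus disagree in sign. The brighter lies within the probe-set spread of 0, while the size of the dimmer is known only as a bound. The brighter carries the _s_at suffix, which marks probes that may match transcripts of more than 1 gene. Msx2 read 50.5 and 57.8, also a log2 ratio of 0.19, just above the floors. A further Msx2 probe set read 11.6 and 31.2, under both floors, and gives no fold. Gsc, which the endothelin pathway also controls in the lower arch, read 68.0 and 78.4, a log2 ratio of 0.21. For Msx1, Msx2 and Gsc, more than 50% of genes of like brightness were as far from 0 or farther.

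Among the signals above these factors, Edn1 was near equal at 455.1 in the ICA and 442.2 in the ECA pool (log2 ratio -0.04), and its converting enzyme gene Ece1 had a log2 ratio of -0.34. Mef2c, a transcription factor between the receptor and the Dlx genes, had -0.52 by the brightest of 5 probe sets, 2 of which pointed the other way, at 0.08 and at a bound of 0.96. Hand2, downstream of Dlx5 and Dlx6 and also made by sympathetic neurons, had 0.39. Ednra, the gene of the A receptor, is also on this endothelin list, but no probe set was annotated to it alone, so it has no value. Of the 9 measured genes of the list, 1 was past 2-fold. It was Hand1, a relative of Hand2 in the distal arch, at 71.8 and 294.5, or 4.10-fold higher in the ECA pool. The other Hand1 probe set, at 20.9 and 20.2, was under both floors. The part of sympathetic neurons in the Hand1 and Hand2 values was not tested. The BMP pathway, which induces Msx genes, had 1 of 16 measured genes past 2-fold, the antagonist gene Grem1 at 2.13-fold higher in the ECA pool, under 2-fold after centring, with the pseudocount and at the higher floor. The lowest of that list was the signal transducer gene Smad1 at -0.43. In all, 9 of the 16 were above 0 and 7 below. The target genes Id1, Id2, Id3 and Id4 had 0.33, 0.27, 0.58 and -0.26, and a further Id4 probe set had 0.07. The Fgf and hedgehog list had 1 of 12 past 2-fold, the receptor gene Ptch1 at 2.07-fold higher in the ECA pool, under 2-fold with each other scaling, with the pseudocount and at the higher floor, and Fgf9 was lowest at -0.80.

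Other homeobox genes of the arches, 15 of them measured, had 3 genes past 2-fold in the ECA pool and 1, Pitx3, in the ICA pool. The 3 were Isl1 at 3.03-fold, Prrx2, a factor of jaw and limb mesenchyme, at 2.59-fold, and Lhx6, a factor of oral mesenchyme, at no less than 2.27-fold. Isl1 is also made by sympathetic neurons, all 5 of whose measured markers were past 2-fold in the ECA pool, with a summed signal over 7 markers of 628 in the ICA and 4577 in the ECA pool. The 4 with the largest ratios were Dbh, Th, Prph and Chga, at 4.40, 3.30, 2.40 and 2.30. The other Dbh probe sets were at 3.11 and 2.21. Those of Prph were at ratios of 0.44 and 0.57, both under 2-fold, and at a bound of 0.18. With the median over probe sets Isl1 was at 0.99, and Lhx6 was at 0.89 with the pseudocount. The other Lhx6 probe set read 41.7 and 18.5, under both floors. Lhx8, a partner of Lhx6 in the upper and lower jaw, had a bound of -0.77. Dlx4, the neighbour of Dlx3, read 12.7 and 60.0, which gave a bound of 1.26-fold higher in the ECA pool, the opposite sign to Dlx3. Msx3, the third Msx gene, had a log2 ratio of 0.27. The median of this list was 0.34, which is the bound of Dlx4, and that of the 9 measured members was 0.19.

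Hox genes, which mark the second and later arches and which crest of the first arch lacks, were measured for 7 genes, and 0 passed 2-fold. Their median was 0.33, with Hoxb3 highest at 0.80 and Hoxa3 lowest at -0.16. A further Hoxb3 probe set was at -0.10, and the median over its probe sets was 0.35, under Hoxa2 at 0.43. Arch factors without a homeobox had 3 of 17 past 2-fold, all higher in the ECA pool. They were Tfap2b at 4.35-fold, Foxd1 at 3.06-fold and Eya1 at no less than 2.72-fold, and Osr1 was lowest at -0.94. Tfap2b is also made by neural crest cells and sympathetic neurons. Glial and neural crest markers had a summed signal of 1900 in the ICA and 2682 in the ECA pool. Of 5 measured, 2 were past 2-fold in the ECA pool, Fabp7 at 1.85 and Foxd3 at 1.48. In all, 4 were above 0 and 1, Erbb3 at -0.30, was below. The part of neurons and glia in these values was not tested.

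**Figure D3:**
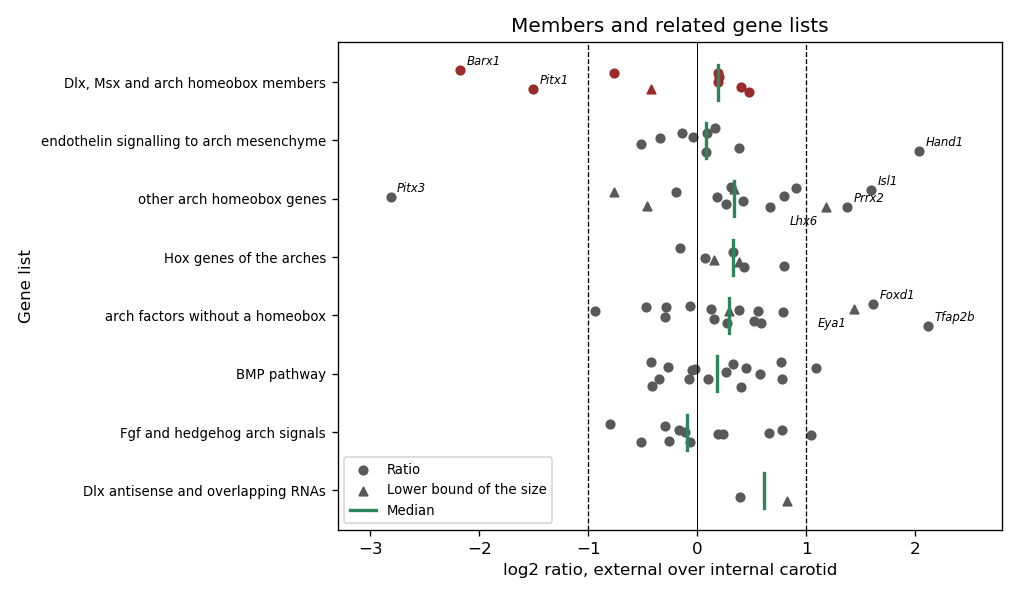
Log2 ratio of external over internal carotid signal for the measured genes of each list, the 9 measured factors in red on top; circles are ratios, triangles are lower bounds of the size, green bars are list medians, dashed lines mark 2-fold and vertical scatter within a list has no meaning. Barx1, Pitx1 and Pitx3 stand at the left, and Hand1, Isl1, Prrx2, Lhx6, Tfap2b, Foxd1 and Eya1 at the right.

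The order of the members by log2 ratio was Barx1, Pitx1, Dlx3, Dlx2, Msx1, Msx2, Gsc, Dlx6 and Dlx5, with Dlx2 at its bound. Msx1, Msx2, Gsc, Dlx6 and Dlx5 lay within 0.34 of each other and so cannot be ordered. Dlx3 and Dlx2 differed by about that spread as well, and Dlx2 may lie lower than its bound. Pitx1 stood below Dlx3 by its brighter probe set, but its other probe set, at -0.78, was level with Dlx3.

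Vessel markers were present on both arrays. Of 5 measured endothelial markers 4 were above 0 and 1 below, from Emcn at -0.19 to Cdh5 at 0.58, with a summed signal over 6 of 1079 in the ICA and 1300 in the ECA pool, and Pecam1 was under both floors. Of 6 smooth muscle markers 4 were above 0 and 2 below, from Acta2 at -0.45 to Myocd at 0.64, with a summed signal of 12929 in the ICA and 11064 in the ECA pool. None of either list passed 2-fold. The Spearman correlation of the arrays over 45037 non-control probe sets was 0.94, with probe sets not independent. Actb signal at the 3′ end exceeded that at the 5′ end by 4.41-fold on the ICA array and 3.53-fold on the ECA array. For Gapdh the excess was larger, 8.39-fold and 7.09-fold. The 18 hybridisation controls had a median log2 ratio of -0.45, farther from 0 than the probe-set spread of 0.34. In size this is near the Dlx5 and Dlx6 ratios, 0.48 and 0.40, and its bearing on them was not tested.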

How the data were processed

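The deposited table holds 1 signal intensity per probe set and array, which the submitters' processing notes credit to GCOS 1.4 and MAS5, run by the authors. The 2% trimmed mean intensity was 150 on both arrays, so values were used as deposited, with no detection calls. Of 45037 non-control probe sets, 34945 had 1 gene in the platform annotation, 932 had several and 9160 were unnamed here. Symbols were updated by gene number through RefSeq (GRCm38.p6). The external over internal log2 ratio, floors at the array medians and a 2-fold threshold were used. The authors' scaling and the double amplification can enlarge small differences of input, and 1 array per pool limits the precision of every value. Members and gene lists were chosen with earlier results of these data known. Text names all members, the listed genes past 2-fold, each list's highest and lowest gene and fixed endothelin genes. It also names up to 4 called markers a cell type list. The Id genes, Dlx4, Msx3, Lhx8, Hoxa2, Sp7 and Myod1 were added after their values were seen. So were Sox9, Matn1, Erbb3, the vessel markers and the inhibitory neuron markers. Steps were tested on simulated data. Scripts ran under Python 3.11.15 with pandas 2.3.3, numpy 2.4.6 and statsmodels 0.14.6.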

Additional observations from a re-analysis of the deposited data

How the results depend on the processing

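Settings changed one choice at a time: scaling (median centring, quantile, loess), the floor (25th or 75th percentile, none), a pseudocount equal to the floor, the probe sets used or their median, and the fold. The settings for the related lists were applied to them after the data were seen. Barx1 stayed at least 2-fold higher in the ICA pool under 9 of 9 settings that gave it a value, from -2.31 to -1.91. Only the scalings and the pseudocount could move Barx1. It has 1 probe set, of neither the _x_at nor the _s_at class, and both signals passed each floor tried. The other settings therefore left Barx1 at -2.17. Pitx1 stayed past 2-fold toward the ICA pool under 7 of 9. It was at -0.97 with the pseudocount and at a bound of -0.21 at the floor raised to the 75th percentile. The count of members higher in the ICA pool, 2 of 9, was therefore 1 of 10 with the pseudocount (0.720% of all genes). It was 1 of 9 at 3-fold (0.572%), 1 of 3 at the raised floor (1.29%) and 3 of 9 at 1.5-fold (5.44%). At the raised floor 2 members, not 8, were measured on both arrays. The members' median of 0.19 was -0.21 at the raised floor, over 3 measured members, and -0.20 without probe sets ending in _x_at or _s_at, where Msx1 was read by its dimmer probe set. It was -0.0040, the value of Msx1, with the median over probe sets, and 0.05 with each other scaling. Under no setting tried was a member 2-fold higher in the ECA pool. Dlx1 had a value of 0.17 with the lower floor or none, and 0.15 with the pseudocount.

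Of 78 measured genes of the related lists, 9 were at least 2-fold higher in the ECA pool (2.15% of all genes) and 1 in the ICA pool (1.51%). The ECA count was 5 of 56 at the 75th percentile floor (1.12% of all genes), 11 of 84 at the 25th (4.97%), 12 of 89 with no floor (8.38%), 20 of 78 at 1.5-fold (9.39%) and 4 of 78 at 3-fold (0.459%). It was 7 of 79 after centring (1.44%), 8 of 79 with quantile or loess scaling (1.66% and 1.62%) and 6 of 89 with the pseudocount (0.940%). The ICA count was 2 of 79 after centring, 3 of 84 at the 25th percentile floor (3.05% of all genes), 4 of 89 with no floor (6.09%) and 4 of 78 at 1.5-fold (5.44%). Centring moved the median of all genes from 0.06 to -0.08, and 1.44% of genes were then past 2-fold toward the ECA pool and 2.23% toward the ICA pool. Most members stood within a few times the floor, so for Dlx1, Dlx2, Dlx6, Msx2 and Gsc a difference may not be detectable at these signals.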
